A study of Rattus norvegicus with 3 samples.

Results

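Transcripts of 8 genes of the interferon response and of antigen presentation were followed in the thoracic aorta of Sprague Dawley rats dosed with allylamine. The genes were the transcription factor Irf1, the interferon-induced effector Mx1, the chemokine Cxcl10, the proteasome activator subunit Psme1, the peptide transporter subunit Tap2, the class I histocompatibility genes RT1-S3 and RT1-CE16, and Cd74, the invariant chain of class II molecules. Every probe set annotated to exactly 1 gene symbol, that symbol being one of the 8, was taken. This gave 16 probe sets for 8 genes, out of 7006 such probe sets for 4736 genes on the array. The genes were chosen by their role in the pathway and some of them by the size of their intensity differences between these arrays, so their differences are given as a description, with no test.

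The groups had 1 array each and were given water at 1 ml/kg (the control) and allylamine at doses of 35 or 70 mg/kg, all for 20 days. Allylamine is an unsaturated amine that injures the heart and arteries. How many animals stand behind each array, their sex and their age are not stated in the labels. With 1 array per group there was no replicate check, no error between animals and no p-value for any difference. Precision is limited by having 3 arrays. In whole tissue, a lower signal from fewer cells of a type and one from less RNA per cell cannot be told apart.

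Values are probe set intensities, scaled so that the 3 arrays had the same median. A floor was set at an intensity of 188, the 40th percentile of all values, and a probe set was called measured in a comparison if both of its arrays exceeded it. A gene's difference is the median log2 difference of its measured probe sets, and 2-fold (a log2 difference of 1) is the size from which a difference was counted. A probe set above the floor on 1 array only gave a bound against the floor, written as "at least". Log2 values correlated across 8740 probe sets with r = 0.48 between 70 mg/kg and control, 0.70 between 35 mg/kg and control and 0.59 between the doses. The range between the 5th and the 95th percentile narrowed with dose, being 6.58, 6.16 and 5.22 on the log2 scale for control, 35 and 70 mg/kg. The 3' over 5' ratio of the cytoskeletal actin control probe sets was 0.376, 0.542 and 1.42 on the same arrays. Of the smooth muscle markers, the brightest probe set of the actin Acta2 lay above the floor on every array. It had 1613, 1325 and 2603 for control, 35 and 70 mg/kg. Its other probe sets crossed the floor, at 970, 114 and 583 and at 111.5, 190 and 267, and the gene's difference at 70 mg/kg was -0.02. Other markers moved in both directions, with Cnn1 at 218, 633 and 1580, the brighter Tagln probe set at 921.5, 483.5 and 461.5, and Des at 370, 85.5 and 149. The smooth muscle myosin Myh11 was dim, with at most 439, 529 and 426 on any of its probe sets.

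Interferons bind cell surface receptors and act through the STAT transcription factors and the IRF family, of which Irf1 is itself induced by interferon gamma. Their targets include antiviral effectors such as Mx1, the T cell attractant Cxcl10, and the machinery of class I presentation, in which the proteasome cuts proteins into peptides, the Tap1 and Tap2 transporter carries them into the endoplasmic reticulum, and a class I heavy chain with its light chain B2m shows them at the cell surface. In arteries, endothelial and smooth muscle cells as well as resident leukocytes can respond to interferon. Cd74 guides class II molecules, which are found mainly on professional antigen-presenting cells.

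The promoters were taken from RefSeq (rat assembly GRCr8), from 250 bases before to 50 bases after each gene's start, and all 8 genes matched an entry by symbol. They were searched on both strands for the core of the interferon-stimulated response element, a pair of GAAA runs with any 2 bases (NN) between them, which IRF and STAT complexes bind, and for the core of the gamma-activated site, TTCNNNGAA, which STAT dimers bind. The first was found in 3.92% and the second in 8.87% of all 33469 promoters of that table. Among the 8 genes, Tap2, Cxcl10 and RT1-S3 held the response element core and Irf1 the gamma-activated site core. The promoters of RT1-CE16, Psme1, Mx1 and Cd74 did not hold these letters in this window. The promoters with a match are printed below, together with that of RT1-CE16, so that the pair of class I genes can be compared, and capitals mark the match. Tap2 (chr20:4652247-4652546, minus strand) has it 41 bases before the start, and Cxcl10 (chr14:15988816-15989115, plus strand) 243 bases before. RT1-S3 (chr20:2675278-2675577, plus strand) has it on the opposite strand, 112 bases before the start, and Irf1 (chr10:38417685-38417984, plus strand) has its site 142 bases before. RT1-CE16 is at chr20:3265394-3265693, minus strand.
Tap2: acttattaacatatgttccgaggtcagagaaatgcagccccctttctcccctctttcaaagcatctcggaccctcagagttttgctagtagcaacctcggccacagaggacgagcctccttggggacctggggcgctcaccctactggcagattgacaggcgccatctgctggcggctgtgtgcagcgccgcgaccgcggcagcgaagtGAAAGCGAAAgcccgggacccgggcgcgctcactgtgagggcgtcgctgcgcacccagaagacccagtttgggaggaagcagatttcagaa
Cxcl10: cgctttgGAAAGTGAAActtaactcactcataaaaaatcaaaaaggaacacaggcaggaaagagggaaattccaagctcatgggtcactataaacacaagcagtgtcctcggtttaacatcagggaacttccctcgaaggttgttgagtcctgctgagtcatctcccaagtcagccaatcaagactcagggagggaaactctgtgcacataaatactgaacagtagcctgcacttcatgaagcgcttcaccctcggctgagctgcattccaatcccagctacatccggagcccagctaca
RT1-S3: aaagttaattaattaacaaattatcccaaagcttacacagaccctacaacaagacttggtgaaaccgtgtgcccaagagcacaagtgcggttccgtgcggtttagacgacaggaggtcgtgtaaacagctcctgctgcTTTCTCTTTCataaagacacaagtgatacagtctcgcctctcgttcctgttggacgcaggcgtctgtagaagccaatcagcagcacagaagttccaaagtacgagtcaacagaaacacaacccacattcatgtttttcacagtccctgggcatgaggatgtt
Irf1: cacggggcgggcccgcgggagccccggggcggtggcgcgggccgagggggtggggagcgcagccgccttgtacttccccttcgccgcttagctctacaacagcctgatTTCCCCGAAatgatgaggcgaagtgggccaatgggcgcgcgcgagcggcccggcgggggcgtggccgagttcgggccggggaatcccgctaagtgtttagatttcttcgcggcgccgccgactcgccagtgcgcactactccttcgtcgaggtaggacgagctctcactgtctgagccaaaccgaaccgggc
RT1-CE16: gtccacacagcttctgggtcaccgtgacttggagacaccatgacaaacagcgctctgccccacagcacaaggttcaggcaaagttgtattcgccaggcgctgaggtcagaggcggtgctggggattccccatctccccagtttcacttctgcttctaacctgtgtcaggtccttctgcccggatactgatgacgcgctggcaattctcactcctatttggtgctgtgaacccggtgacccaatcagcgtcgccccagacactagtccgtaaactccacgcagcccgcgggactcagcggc

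A match of these letters is a description and not a binding site. The response element core stood in 23 of 32 promoters of interferon-induced effector genes and in 6 of 12 of the peptide loading and immunoproteasome list, against 3.92% of all promoters. On these arrays, of 56 measured genes with the core in their promoter (the 8 genes left out), 23.2% exceeded the control at least 2-fold at 70 mg/kg. Of 1914 measured genes without it, 19.2% did. The shares at 35 mg/kg were 15.9% of 63 genes with the core and 16.5% of 2038 genes without it. Those at least 2-fold lower were 16.1% with and 23.3% without the core at 70 mg/kg, and 11.1% and 16.7% at 35 mg/kg. For the gamma-activated site core at 70 mg/kg, 24.1% of 137 genes with it were that much higher and 21.9% lower. Of 1833 genes without it, 18.9% were higher and 23.2% lower. At 35 mg/kg, 15.1% of 146 genes with it and 16.6% of 1955 without it were higher, and 12.3% and 16.8% lower.

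At 70 mg/kg, 4 of the 8 genes (Tap2, Cxcl10, Irf1 and Mx1) were at least 2-fold higher than in the control aorta, and the class I genes RT1-S3 and RT1-CE16 were at least 2-fold lower, RT1-S3 on the single one of its 3 probe sets that was measured. Psme1 and Cd74 differed by less. Of all 2462 genes measured in this comparison, 42.9% differed at least 2-fold, 19.7% being higher and 23.2% lower. Because large differences were among the reasons for choosing the genes, nothing is read from their count. The 35 mg/kg array gave a measured difference for 7 of the 8 genes. Mx1 and Tap2 were at least 2-fold higher and RT1-S3 and RT1-CE16 at least 2-fold lower, where 33.1% of 2606 genes differed that much (16.8% higher and 16.3% lower). Between the doses, Cxcl10 and Tap2 were at least 2-fold higher at 70 than at 35 mg/kg and the class I genes again lower, where 35.3% of 2459 genes differed (14.4% higher and 20.9% lower). Because 1 control array serves both doses, the counts are not independent of each other.

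**Figure D1:**
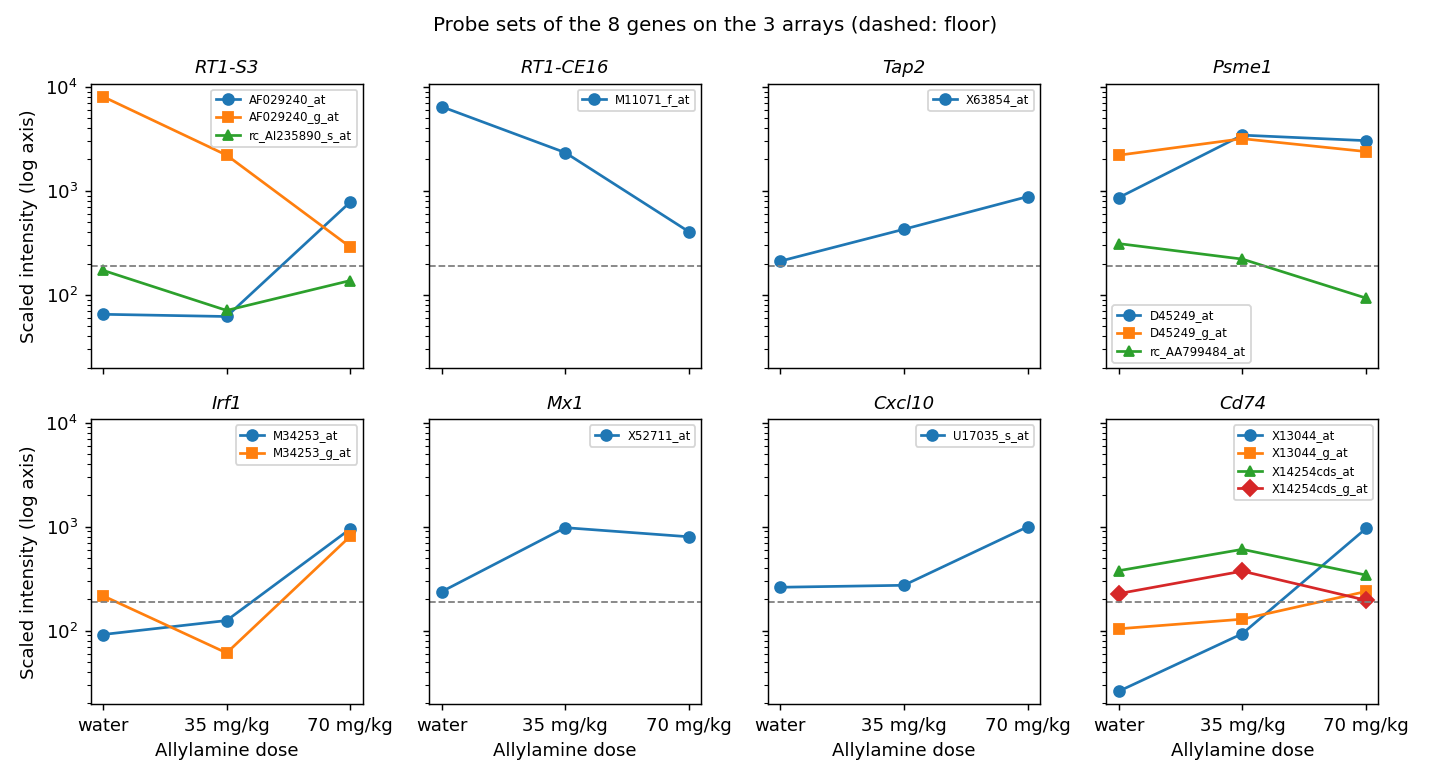
Scaled intensity (log axis) of each probe set of the 8 genes on the water, 35 mg/kg and 70 mg/kg arrays, with 1 line per probe set and the floor of 188 dashed. The bright RT1-S3 and RT1-CE16 probe sets are lower at each higher dose, the Tap2 probe set is higher at each, and both Irf1 probe sets are high at 70 mg/kg only.

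Irf1, the transcription factor that interferon gamma induces, had 2 probe sets from one sequence. The first (M34253_at) was at 91.7 on the control array, 125 at 35 and 951 at 70 mg/kg, and the other (M34253_g_at) at 216, 61.0 and 809. Both were thus high at 70 mg/kg and low on the other arrays. The measured difference at 70 mg/kg was 1.90 on the log2 scale, and the probe set whose control value lay below the floor was at least 5.05-fold higher. The 35 mg/kg values both lay below the floor, so no difference from the control was measured there, and M34253_g_at was at least 1.15-fold lower. Of the 8 genes, only RT1-S3, Psme1, Irf1 and Cd74 had such a same-sequence pair. Among them, Irf1 alone had both probe sets of a pair over 2-fold higher at 70 mg/kg, with values below the floor raised to it.

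Mx1, a dynamin-like GTPase that blocks virus replication, had an intensity of 236 on the control array, 976.5 at 35 and 798 at 70 mg/kg on its single probe set. It was higher at both doses, by 2.05 at 35 and 1.76 at 70 mg/kg, with a difference of -0.29 between 70 and 35 mg/kg. Cxcl10, which draws activated T cells through the receptor Cxcr3, had 261 on the control array, 273 at 35 and 994 at 70 mg/kg on 1 probe set. It was higher at 70 mg/kg only, by 1.93, the 35 mg/kg difference being 0.06. On these arrays, with 1 probe set for each gene, Mx1 was about as high at 35 as at 70 mg/kg and Cxcl10 was not. Whether their dose patterns differ was not tested.

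Tap2, a subunit of the transporter that carries peptides into the endoplasmic reticulum, was higher at each dose, with 211 on the control array, 427 at 35 and 879 at 70 mg/kg. Its differences from control were 1.02 at 35 and 2.06 at 70 mg/kg, on 1 probe set. Psme1 encodes the alpha subunit of the PA28 proteasome activator, which alters peptide production. Of its probe sets, D45249_at had 859 on the control array, 3429 at 35 and 3035 at 70 mg/kg, while D45249_g_at from the same sequence had 2200, 3170 and 2383. The remaining one, rc_AA799484_at, went the other way, at 311, 220.5 and 93.0, the last below the floor. The Psme1 probe sets thus disagreed. At 70 mg/kg the measured ones differed from control by 1.82 and 0.12 (median 0.97). The 35 mg/kg differences were 1.997 on D45249_at, 0.53 on D45249_g_at and -0.50 on rc_AA799484_at (median 0.53).

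RT1-S3 is a class I gene of the rat histocompatibility complex on chromosome 20, for which the RefSeq gene table lists the synonym H2-T23. Its probe set AF029240_g_at was among the brightest on the control array, at 8052 (the 99.3rd percentile), and had 2202 at 35 and 288 at 70 mg/kg. This is a difference of -1.87 at 35 and -4.81 at 70 mg/kg, 28.0-fold lower at the higher dose. No other measured gene had a lower value there as a median over its probe sets. Single probe sets could be lower, as one of Lep was, at -5.13. The companion of AF029240_g_at, AF029240_at, is named for the same sequence and ran against it, with 65.0, 61.9 and 782. It exceeded the control at least 4.15-fold at 70 mg/kg. The last RT1-S3 probe set, rc_AI235890_s_at, lay below the floor on all arrays, at 172, 70.8 and 137. No direction can be given for RT1-S3 as a gene from these probe sets. When the floor was put at the 5th percentile, so that all of them counted, its difference at 70 mg/kg was -0.33.

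RT1-CE16, a class I gene of the same complex, had 6448 on the control array, again among the brightest, 2330 at 35 and 404 at 70 mg/kg on its single probe set M11071_f_at. The differences were -1.47 at 35 and -4.00 at 70 mg/kg, and the suffix f of the probe set's name marks probes that several members of a gene family share. Another 3 probe sets carried the symbols of 3 class I genes, RT1-CE16 among them. Of these, AF074609mRNA_f_at had 1785, 611.5 and 700 on the control, 35 and 70 mg/kg arrays, M64795_f_at had 282, 123 and 157, and M64795_i_at had 1382, 3089 and 1106. The first was lower at both doses, with differences of -1.55 at 35 and -1.35 at 70 mg/kg, the next lay above the floor on the control array only, and the last was highest at 35 mg/kg.

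Cd74 had 4 probe sets from 2 sequences. The X14254 pair was at 377 and 227 on the control array, 604.5 and 373 at 35 mg/kg, and 342 and 196 at 70 mg/kg. It differed by 0.68 and 0.72 at 35 mg/kg and by -0.14 and -0.21 at 70 mg/kg. The X13044 pair was below the floor on the control array (26.1 and 104) and at 35 mg/kg (93.5 and 129), and reached 960.5 and 238 at 70 mg/kg. These were at least 5.10-fold and 1.26-fold higher there, so the sequences disagreed at the higher dose and Cd74 had no common direction. In all, 4 of the 16 probe sets lay above the floor at 70 mg/kg only, and 3 of them (1 each of RT1-S3, Irf1 and Cd74) were at least 2-fold above it there. Of all 7006 probe sets with 1 symbol, 4.64% did so. Counting pairs of arrays, 3 of the 16 were at least 2-fold above the floor at 70 mg/kg and below it in the control, as were 9.28% of the 7006, and 0 were the other way round (8.55% of the 7006). Against 35 mg/kg, 4 of the 16 were so at 70 mg/kg (7.82%) and 0 the other way (7.15%), and between 35 mg/kg and the control 0 of the 16 were so in either direction (5.28% and 5.58%).

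**Figure D2:**
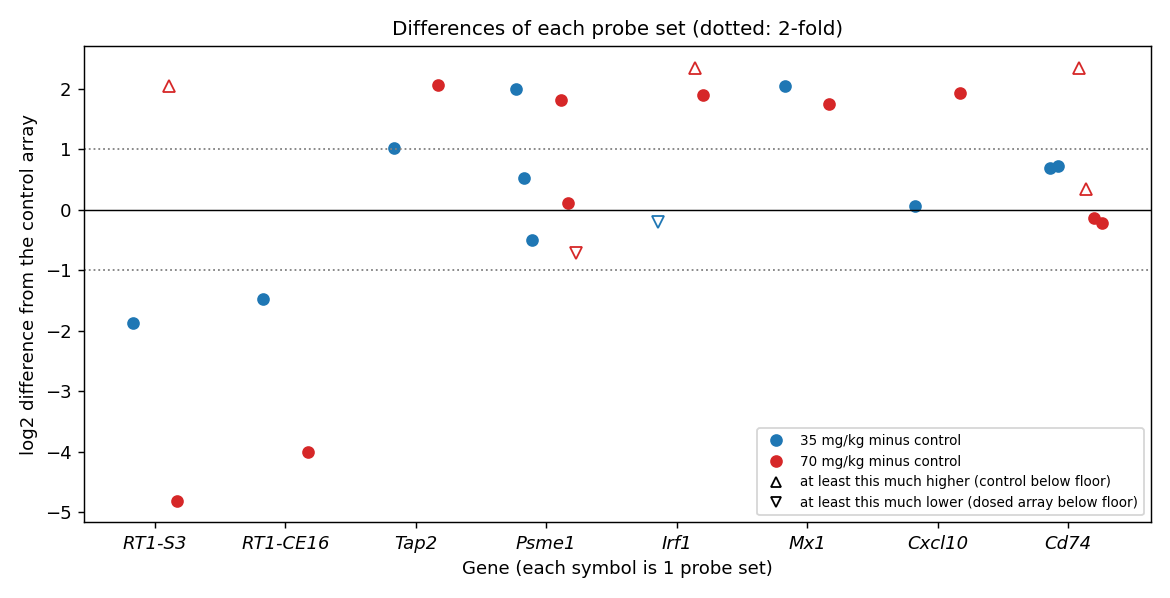
Log2 difference from the control array for each measured probe set of the 8 genes at 35 mg/kg (blue) and 70 mg/kg (red). Open triangles are bounds for probe sets below the floor on 1 array. The RT1-S3 column holds both the lowest value, -4.81, and a bound of at least 4.15-fold higher.

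The only repeat measurement within these arrays is between probe sets of one gene. For 763 pairs of probe sets named for one sequence and carrying the same symbol (suffixes at and g_at), the differences at 70 mg/kg correlated with r = 0.10 across the 179 pairs measured on both arrays, and 57.0% of the pairs had the same sign. For 35 mg/kg these values were r = 0.20 and 59.5% over 215 pairs. Pairs are not independent replicates, and they share an array. Over all genes with several measured probe sets, the SD between probe sets of one gene was 1.40 at 70 and 1.08 at 35 mg/kg. The gene differences of Tap2 (1.02 at 35 mg/kg), Psme1 and Cd74, as medians over measured probe sets, were smaller than that. The Psme1 probe set D45249_at alone was larger, at 1.997 for 35 and 1.82 for 70 mg/kg. With values below the floor raised to it, the RT1-S3 pair differed by 6.86 at 70 mg/kg, the widest gap of the 763 pairs, whose median gap was 1.18. The Irf1 pair differed by 0.43, the X14254 pair of Cd74 by 0.07, the X13044 pair by 2.01 and the Psme1 pair by 1.71.

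**Figure D3:**
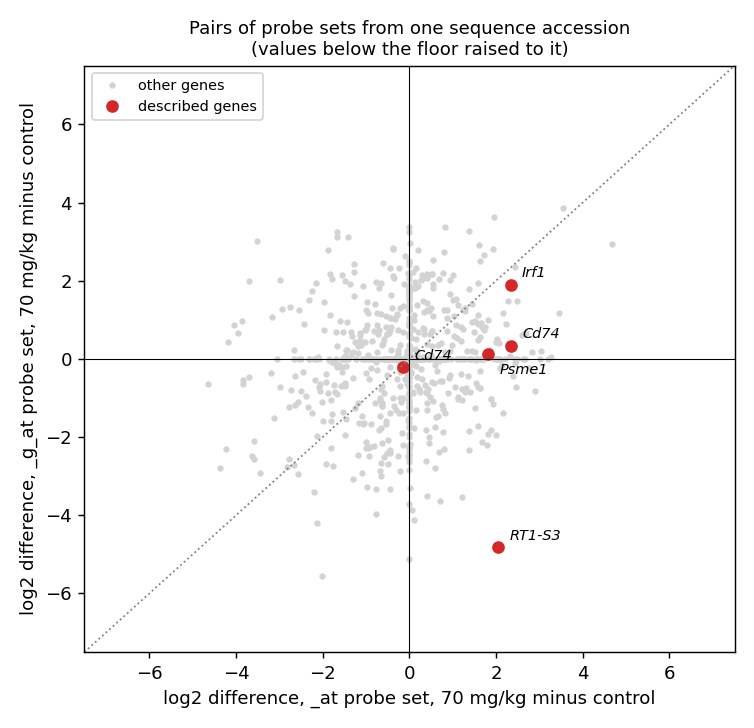
Log2 differences at 70 mg/kg against control for pairs of probe sets named for one sequence, the at probe set on the x axis and the g_at probe set on the y axis, with values below the floor raised to it. The points scatter widely around the dotted line of equal differences, and RT1-S3 lies farthest from it, at 2.05 and -4.81.

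The level on the control array moved with the direction of these differences. Tap2, Irf1, Mx1 and Cxcl10, the genes higher at 70 mg/kg, were measured by probe sets just above the floor on the control array, at 211 to 261. Of 839 other probe sets with a control intensity from the floor to 282.5, bounds chosen after the values had been seen, 481 were measured at 70 mg/kg and 52.2% of those were at least 2-fold higher, with a median of 1.07. The 35 mg/kg array measured 477 of them, with 39.4% at least 2-fold higher. A probe set this near the floor cannot fall 2-fold and stay measured, and 358 of the 839 lay below the floor at 70 mg/kg. At the other end, RT1-S3 and RT1-CE16 had control intensities above 6000. Of 68 other probe sets that bright, 65 were measured at 70 mg/kg and 76.9% were at least 2-fold lower, with a median of -2.25. Of these, 19 were at least 8-fold lower. Of the 68 probe sets, 35.3% were at least 2-fold lower at 35 mg/kg, with a median of -0.47. The narrowing range of values and the actin ratio given above moved with dose as well, and so did the 9 spike-in control probe sets, whose median ratio to the control array was 3.81 at 35 and 28.8 at 70 mg/kg. The part of these in the differences of the 8 genes was not tested.

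Among the remaining class I genes of the complex, 7 probe sets for 6 genes gave 6 measured differences at 70 mg/kg, from -1.96 to 1.66 with a median of 0.18. RT1-M5 was higher at both doses, with 528.5 on the control array, 3693 at 35 and 1671 at 70 mg/kg (differences of 2.80 and 1.66). RT1-A, which is outside the lists and named after its values were seen, had 1024, 664 and 264 and a difference of -1.96 at 70 mg/kg. RT1-M3-1, which presents formylated peptides, had 1213, 990 and 519 on 1 probe set (-1.23 at 70 mg/kg). RT1-CE12 had 842, 246.5 and 1328 on the control, 35 and 70 mg/kg arrays, low at 35 mg/kg (-1.77) and at 0.66 at 70 mg/kg. RT1-A3 (0.36 at 70 mg/kg) and RT1-N3 (0.00) differed little. The class I heavy chains thus did not move in one direction. The light chain B2m, whose values were singled out after they had been seen, lay below the floor in the control (170) and at 35 mg/kg (158) and had 573 at 70 mg/kg, at least 3.04-fold higher.

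Among partners of Tap2 and Psme1, chosen after their values had been seen, both Tap1 probe sets were below the floor on the control array, at 88.3 and 84.9. They reached 1462 and 551 at 35 mg/kg and 904 and 524 at 70 mg/kg. Tap1, the other subunit of the transporter, was thus higher by at least 7.76-fold and 2.93-fold at 35 mg/kg and by 4.80-fold and 2.78-fold or more at 70 mg/kg, in the direction of Tap2. One probe set of the immunoproteasome subunit Psmb9 had 31.4 on the control array, 221 at 35 and 617 at 70 mg/kg, and its other lay below the floor on every array. Psmb8, another immunoproteasome subunit, had 1085, 1332 and 662 (0.30 at 35 and -0.71 at 70 mg/kg). Psme2, the partner of Psme1 in the PA28 activator, had 1003.5, 354.5 and 636, with differences of -1.50 at 35 and -0.66 at 70 mg/kg. Of 10 genes of the peptide loading and immunoproteasome list on the array, 7 were measured at 70 mg/kg. Tap2 was at least 2-fold higher, the aminopeptidase Lnpep at least 2-fold lower (-1.24), and the median was 0.06, against -0.06 over all 2462 genes. Those past 2-fold were 28.6% of the 7, against 42.9% of all 2462 genes.

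Of 12 interferon-induced effectors on the array, 7 were measured at 70 mg/kg, with Mx1 at least 2-fold higher, Lgals3bp at least 2-fold lower (-1.26, its probe sets at -0.59 and -1.93) and a median of 0.13. These are 28.6% of the 7, against 42.9% of all measured genes. The antiviral enzyme Oas1a had 1000, 807 and 1244 on the control, 35 and 70 mg/kg arrays (0.32 at 70 mg/kg). The antiviral protein Rsad2 differed by -0.55 at 35 and 0.10 at 70 mg/kg, its probe sets being at 0.76 and -0.56 at 70 mg/kg. Ifitm3, which restricts virus entry, differed by -0.58 at 35 and 0.13 at 70 mg/kg. Nos2, the inducible nitric oxide synthase, differed by -0.78 at 70 mg/kg on probe sets that ran from -2.03 to 2.06. The guanylate-binding protein Gbp2, singled out after its values had been seen, went with Irf1, at 18.3 and 48.8 on the control and 35 mg/kg arrays and 988 at 70 mg/kg, at least 5.25-fold higher. Mx2, a relative of Mx1 singled out in the same way, had 148, 117 and 231, and lay above the floor at 70 mg/kg only, by 1.23-fold. Oas1b, a relative of Oas1a singled out likewise, ran the other way, with 545, 170 and 80.7, at least 2.89-fold lower at both doses.

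Of the interferon-induced chemokines and adhesion molecules, 4 were measured at 70 mg/kg, and 3 of these were at least 2-fold higher, where 19.7% of all measured genes were. They were Cxcl10, the endothelial adhesion molecule Vcam1 and the monocyte attractant Ccl2. Cxcl10 and the measured Vcam1 probe set had control intensities of 261 and 218.5, inside the range from the floor to 282.5 described above. In that range, 52.2% of the measured probe sets outside the 8 genes passed 2-fold upward at the 70 mg/kg dose. The measured Ccl2 probe set lay outside it, with 553.5 in the control. The list's median was 1.53, and 1.14 without Cxcl10, which is among the 8 genes chosen. One Vcam1 probe set had 218.5, 889 and 950.5 on the control, 35 and 70 mg/kg arrays, higher by 2.02 at 35 and 2.12 at 70 mg/kg. The other had 65.1 on the control array, 265 at 35 and 400.0 at 70 mg/kg, in the same direction. Ccl2 differed by 0.65 at 35 and 1.14 at 70 mg/kg on 1 probe set, and its other had 88.1, 129 and 985. Icam1, the ligand of leukocyte integrins, had 2 probe sets of opposite sign at 70 mg/kg, 1.59 and -1.71. The chemokine Ccl5, named after its values were seen, had 361 on the control array and lay below the floor at both doses.

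Among ligands, receptors and signalling genes, 11 were measured at 70 mg/kg, with Irf1 alone at least 2-fold higher, 3 at least 2-fold lower and a median of -0.60. Those lower were Irf2, an antagonist of Irf1 (585, 523 and 222 on the control, 35 and 70 mg/kg arrays, -1.40 at 70 mg/kg), the phosphatase Ptpn6 (-1.09) and the myeloid factor Irf8 (-1.08). Those past 2-fold were 36.4% of the 11, against 42.9% of all measured genes (19.7% higher and 23.2% lower). The median over all genes was -0.06. Irf7, which drives interferon alpha genes, differed by -0.66. Interferon gamma itself (Ifng) had 399 and 391 on the control array, 450 and 142.5 at 35 mg/kg, and 153 and 169 at 70 mg/kg, both below the floor there. Interferon beta (Ifnb1) had 200.5, 529 and 231, higher at 35 mg/kg by 1.40. The receptor chain Ifngr1 had 58.7, 534 and 652, and Stat2, of the type I interferon pathway, had 90.1, 348 and 449. Both lay below the floor in the control. Ifng, Ifngr1 and Stat2 were singled out after their values had been seen.

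Of 9 class II genes measured at 70 mg/kg, RT1-DOa alone passed 2-fold (4542, 3121 and 1639 on the control, 35 and 70 mg/kg arrays, -1.47 at 70 mg/kg), and of 9 measured at 35 mg/kg 0 did, where 42.9% and 33.1% of all measured genes passed it. Probe sets that crossed the floor are not in these counts. Of the list's 30 probe sets, 2 were at least 2-fold above the floor at 70 mg/kg and below it in the control (1 each of Cd74 and RT1-Db1), and 2 were the other way round. For 35 mg/kg these counts were 4 and 2, with RT1-Db1 at least 4.66-fold and one RT1-Bb probe set at least 4.45-fold higher, and the protease Ctss at least 4.75-fold lower. These bounds were named after their values were seen. Over all 7006 probe sets with 1 symbol, the shares for these counts were 9.28% and 8.55% at 70 mg/kg. At 35 mg/kg they were 5.28% and 5.58%. RT1-Ba, a class II alpha chain, differed by -0.40 at 35 and -0.68 at 70 mg/kg, its probe sets running from -1.18 to 0.65 at 35 mg/kg. Its partner RT1-Bb differed by 0.58 at 35 and 0.17 at 70 mg/kg.

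Taking the 6 interferon and presentation lists together and leaving out the 8 genes, 41 genes were measured at 70 mg/kg. Of these, 3 were at least 2-fold higher (Vcam1, RT1-M5 and Ccl2) and 8 at least 2-fold lower (Mr1, which presents vitamin metabolites and was at -2.10, RT1-DOa, Irf2, Lgals3bp, Lnpep, RT1-M3-1, Ptpn6 and Irf8). This is 26.8% of the lists' measured genes, against 42.9% of all genes measured. Probe sets that crossed the floor are not in these counts. Of the lists' 114 probe sets, 13 were at least 2-fold above the floor at 70 mg/kg and below it in the control, and 8 were the other way round, where 9.28% and 8.55% of all 7006 probe sets were. For 35 mg/kg these counts were 7 and 8, where 5.28% and 5.58% of the 7006 were. Of 40 measured at 35 mg/kg, 3 were at least 2-fold higher (RT1-M5, Vcam1 and Ifnb1) and 3 lower (RT1-CE12, the lipid-presenting Cd1d1 at -1.54, and Psme2). The median was -0.06 at 70 and -0.04 at 35 mg/kg, beside -0.06 and 0.04 over all genes.

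**Figure D4:**
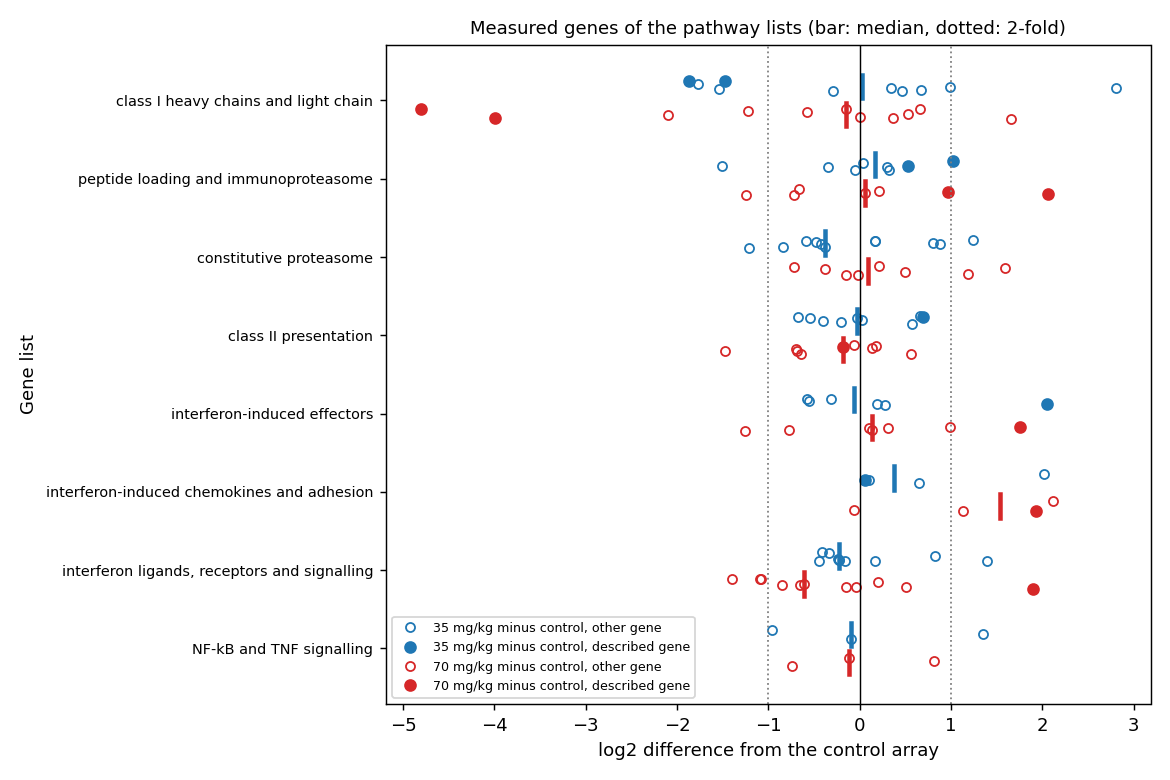
Log2 difference from the control array at 35 mg/kg (blue) and 70 mg/kg (red) for every measured gene of 8 pathway lists, with a bar at each list's median, filled points for the 8 genes described and dotted lines at 2-fold. Most open points lie between the dotted lines, and the filled points of RT1-S3 and RT1-CE16 lie far below them at 70 mg/kg.

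Leukocyte markers differed among the arrays. The summed intensity of the 9 probe sets of the pan-leukocyte list (7 of 12 genes on the array) was 1815 on the control array, 2072 at 35 and 5705 at 70 mg/kg, and 4, 5 and 7 of them lay above the floor. All were dim on the control array, the brightest being Cd37 at 366. Ptprc, the common leukocyte antigen, had 19.4, 127 and 363 on the control array, 48.7, 464 and 116 at 35 mg/kg, and 363, 1294 and 635 at 70 mg/kg, where each of its probe sets was highest. Coro1a alone in this list was lower at 70 mg/kg than in the control, with 202, 24.1 and 30.9 on the control, 35 and 70 mg/kg arrays. The T and NK cell list (17 of 24 genes, 21 probe sets) summed to 10637 on the control array, 7197 at 35 and 9463 at 70 mg/kg. The macrophage and dendritic cell list (8 of 22 genes, 14 probe sets) summed to 5687, 3980 and 4685, and the B cell list (2 of 11 genes) to 1248, 1689 and 673. The markers within these lists moved in both directions. Among T cell markers, the brighter Cd3g probe set had 353, 396 and 592.5 on the control, 35 and 70 mg/kg arrays and Cd247, also of the T cell receptor complex, had 73.0, 239 and 1167. The coreceptors Cd8a, at 850.5, 142 and 109, and Cd4, at 378, 242 and 82.5, ran the other way, as did the kinase Lck at 2286, 566 and 101. Cd3d lay above the floor on the control and 35 mg/kg arrays and below it at 70 mg/kg, with 239, 306 and 135.5. Among macrophage markers, Fcgr2b had 210, 306 and 641 and one Cd14 probe set 314.5, 223 and 1240, while the other Cd14 probe set had 1675, 1590 and 1539. The complement gene C1qc had 1063.5, 469 and 122 on its brightest probe set, Lyz2 had 818, 81.5 and 217.5, and one Aif1 probe set had 549, 591 and 147. Csf1r and Itgam lay below the floor on every array. No marker was at 0. The endothelial list (9 of 14 genes) summed to 5303 on the control array, 8238 at 35 and 8081 at 70 mg/kg. Its markers also moved in both directions. Kdr had 91.9, 144 and 1791 and one Nos3 probe set 451, 2591 and 178. Flt1 had 983, 526.5 and 427, and Icam2 561, 241.5 and 344. The median difference of the list's measured genes was 0.03 at 35 and -0.35 at 70 mg/kg. The part of these cells in the levels of Cxcl10, Irf1 and the class I genes was not tested.

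The next values are distances over the pair of differences at 35 and 70 mg/kg against control, among 2118 genes measured in all 3 comparisons. A gene's probe sets can differ between comparisons. The genes most like RT1-S3, on its 1 measured probe set, were Adcy5 (a distance of 0.68), Nrarp (0.75) and Shank2 (0.85). Those most like RT1-CE16 were Shank2 (0.20), Ins2 (0.30) and Nrarp (0.32). Between the doses, which the distance leaves out, Ins2 was at -0.80 and RT1-CE16 at -2.53. Each rests on 3 arrays that share 1 control, and none is a class I gene. Shank2 differed by -1.67 at 35 and -3.99 at 70 mg/kg, and Nrarp by -1.33 and -4.28.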

How the data were processed

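Total RNA of thoracic aorta was measured on 3 oligonucleotide arrays, 1 per group. The deposited values are linear intensities, 1 for each probe set on each array. The labels state neither the authors' software nor their scaling. The intensities had a common mean of 500.4, 500.4 and 500.2 (control, 35 and 70 mg/kg) after trimming 2% at each end, so the deposited values had a common scale. Their spread still differed between arrays. Symbols came from the platform annotation, and 6985 of the 7006 probe sets with 1 symbol were found by gene ID in the GRCr8 gene table, which changed 0 symbols. Of 8799 probe sets, 59 controls were left out, 308 had several symbols and 1426 none.

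Computed here (Python 3.11.15, pandas 2.3.3) were a linear scaling to a common median (shifts of 0.06, 0.04 and -0.09 on the log2 scale), the floor, log2 differences and the 2-fold count. The calculation was tested on simulated data, with differences put only into genes far above the floor. The simulated noise was smaller than the spread between probe sets seen here. The test therefore does not cover probe sets near the floor. Of each list, up to 6 genes measured in all comparisons with the largest differences could be named, besides all 8 genes. Others, cell markers included, were chosen after their values were seen. Genes, lists and settings were chosen with earlier results of these data known. Promoters were matched for 3871 of 4736 genes. Protein sequences were not compared here. Alternatives were 3 other scalings, 3 other floors (5th, 25th and 55th percentile), taking only a gene's brightest probe set, and leaving out probe sets with the suffixes f, g, i, r or s, which mark shared or less specific probes.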

Additional observations from a re-analysis of the deposited data

Results flagged for a closer look

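A probe set annotated to 3 class I genes (M64795_i_at), which entered no count because its signal cannot be given to 1 gene, was higher at 35 mg/kg than in the control by 1.16 on the log2 scale (scaled intensities of 3089 and 1382). Of all genes measured at 35 mg/kg, 16.8% were at least 2-fold higher. AF074609mRNA_f_at, with the same 3 symbols, ran the other way at 35 mg/kg, at -1.55. At 70 mg/kg M64795_i_at had 1106, and its partner M64795_f_at from the same sequence lay below the floor at both doses. With 1 array per group the difference was not tested.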

How the results depend on the processing

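No paired analysis was possible because each group has 1 array, and for the same reason no replicate could be left out. The 14 differences of the 8 genes past 2-fold stayed past it under the 3 other scalings. Over all 8 alternatives, 112 combinations, 19 gave no value because no probe set was left, 46 returned the reported value unchanged, as genes with 1 probe set must under several settings, and 47 differed, of which 45 stayed past 2-fold. The value that changed sign was RT1-S3 between the doses, at -2.94 as reported and at 0.95 under the 5th percentile floor, where its dim probe sets count too. Against the control at 70 mg/kg, RT1-S3 was at -0.33 under that floor and at -2.57 under the 25th. Irf1, not measured at 35 mg/kg, was at -0.69 there under the 5th.

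Counts of the 8 genes kept within 1.5 times under the 3 other scalings, the 25th percentile floor and the brightest probe set. Under those scalings 5 genes were higher at 70 mg/kg, Psme1 passing 2-fold (1.12 with the values as deposited and 1.51 with quantile normalization), while its brightest probe set alone gave 0.12. Those at least 2-fold higher (4 at 70 mg/kg, 2 at 35 mg/kg, 2 between the doses) became 0, 1 and 1 under the 55th percentile floor, which leaves fewer genes measured, and 1 between the doses without less specific probe sets. Those lower (2 in each comparison) became 1 at 70 mg/kg and 1 between the doses under the 5th and the 55th percentile floor, and 0 in all comparisons without less specific probe sets, a setting that removes the measured class I probe sets.

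For the 6 lists without the 8 genes, the count higher at 70 mg/kg (3) was 9 and 5 under the 5th and the 25th percentile floor and 6 by the brightest probe set, and the count lower (8) was 14 and 4 under the 5th and the 55th. At 35 mg/kg the count higher (3) was 9 and 1 under the 5th and the 55th and 6 by the brightest, and the count lower (3) was 11 and 10 under the 5th and the 25th and 6 by the brightest. Between the doses the count higher (3) was 7, 5 and 1 under the 5th, the 25th and the 55th, and the count lower (8) was 4 at the 55th. The share of higher among all 2-fold differences at 70 mg/kg was 46.0%, and 51.0% with the values as deposited. Signals near the floor limit what can be said of Irf1, Cd74, Mx1, Cxcl10 and Tap2.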

Other observations

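Constitutive proteasome genes were set beside the immunoproteasome. Of 21 on the array, 8 were measured at 70 mg/kg, with Psmb4 (1.59) and Psmb2 (1.18) at least 2-fold higher, 0 lower and a median of 0.10, where 42.9% of all measured genes passed 2-fold. At 35 mg/kg 11 were measured, 1 higher (Psmd4, 1.24) and 1 lower (Psma7, -1.22, named after its value was seen), with a median of -0.38. Those past 2-fold were 18.2% of the 11, against 33.1% of all measured genes. Of the inflammatory NF-kB and TNF list, 3 genes were measured at 70 mg/kg and 0 passed 2-fold. Its receptor Tnfrsf1a had 418, 1071 and 250 on the control, 35 and 70 mg/kg arrays.

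RT1-S3, RT1-CE16 and Tap2 lie on chromosome 20. Of 30 other genes on the array that lie between RT1-S3 and Tap2 in the GRCr8 gene table, 21 were measured at 70 mg/kg, 6 at least 2-fold higher and 4 lower, with a median of 0.36. This is 47.6%, beside 42.9% and a median of -0.06 over all measured genes. At 35 mg/kg 23 were measured, 7 higher and 2 lower (39.1%, beside 33.1% of all), with a median of 0.49, beside 0.04.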
